A study of Mus musculus with 15 samples.

Results

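Branched-chain amino acid catabolism was followed through 10 genes: the aminotransferases Bcat1 and Bcat2, the subunits Bckdha, Bckdhb, Dbt and Dld of the branched-chain ketoacid dehydrogenase, its kinase Bckdk, and the leucine-branch enzymes Ivd, Mccc1 and Mccc2. They were picked by symbol and matched to 10 of the 37991 Ensembl gene identifiers in the counts table, of which 26485 had at least 1 count in the 15 libraries. The 4 groups were inguinal white adipose tissue of IL-33-/- mice at postnatal day 24 (3 libraries, numbered 2 to 4), wild-type inguinal tissue of the same age (4 libraries), brown adipose tissue labelled IL-33-/- at day 0.5 (4 libraries) and wild-type brown fat at day 0.5 (4 libraries). All mice had the C57BL/6 background. IL-33 is an alarmin, a cytokine freed by cell injury, and ST2 is its receptor. The sources used here do not say which bases of Il33 the allele lacks, or whether libraries came from separate or pooled animals. A p-value here therefore speaks of the spread among libraries, part or all of which may be technical.

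Leucine, isoleucine and valine are first transaminated, by BCAT2 in mitochondria or by BCAT1 in the cytosol. The resulting ketoacids are then irreversibly decarboxylated by the mitochondrial dehydrogenase complex, which the kinase BCKDK switches off and the phosphatase PPM1K switches on. Leucine carbon goes on through IVD and the biotin-dependent carboxylase MCCC1-MCCC2 to acetyl-CoA and ketone bodies, while valine and isoleucine carbon can enter the TCA cycle through propionyl-CoA. Differentiated adipocytes use these amino acids for lipid synthesis, and active brown fat burns them in mitochondria.

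Total counts were 30835337 to 38765633 in inguinal knockout, 26059635 to 53923009 in inguinal wild-type, 33782634 to 40802095 in labelled knockout brown and 31661512 to 41926108 in wild-type brown libraries. Il33 stood at 0.346, 0.471 and 0.0791 CPM (counts scaled to library size with TMM factors over all 15 libraries, the level used throughout) in inguinal knockout libraries, against 3.45 to 4.61 CPM in wild type. In brown fat it stood at 0.413, 1.75, 1.41 and 0.594 CPM in labelled knockout libraries 1 to 4. Brown wild-type libraries held 1.73 to 3.21 CPM, and the groups overlapped. Labelled knockout library 1 was thus the lowest for Il33, and library 2 lay within the wild-type range. The edgeR adjusted p for brown Il33 was 0.229, with a log2 change of -1.08 and an SE of 0.44, so the brown group is called labelled knockout here. Brown labelled knockout library 1 differed from the other 3 for several members, and the brown calls are given with and without it. It was picked out by these values, so calls made without it are descriptive only. Adipoq and the other 9 adipocyte markers were above 1 CPM in every group. Zic1, a brown-fat marker, was below 1 CPM in inguinal tissue. Epithelial markers summed to 76.4 CPM in brown labelled knockout library 4, against at most 1.71 CPM in the other brown libraries; without library 4 no member passed in brown fat either.

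Promoter sequence is shown for the aminotransferases, whose changes in inguinal knockout fat had opposite signs, and for Mccc2, the one member with an E-box in its window. RefSeq start sites of build GRCm38.p6 gave 12 windows (250 bases before to 50 after a start) for 9 of the 10 members; the other is Dbt. Capitals mark matches, on either strand, to the E-box CACGTG, to AGGTCA, which nuclear receptors bind, to the CCAAT box and to the GC box GGGCGG. On the other strand the CCAAT box reads ATTGG, and in Mccc2 the forward and reverse forms overlap once. Each line runs 5′ to 3′ on the gene's strand.
Bcat1, chr6:145048763-145049062, minus strand: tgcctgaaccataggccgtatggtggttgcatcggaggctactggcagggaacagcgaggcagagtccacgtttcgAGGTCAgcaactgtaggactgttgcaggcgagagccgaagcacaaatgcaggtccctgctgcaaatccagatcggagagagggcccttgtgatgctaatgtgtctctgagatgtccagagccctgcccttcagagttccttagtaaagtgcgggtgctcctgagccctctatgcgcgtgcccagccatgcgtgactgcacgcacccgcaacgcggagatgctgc
Bcat1, chr6:145076108-145076407, minus strand: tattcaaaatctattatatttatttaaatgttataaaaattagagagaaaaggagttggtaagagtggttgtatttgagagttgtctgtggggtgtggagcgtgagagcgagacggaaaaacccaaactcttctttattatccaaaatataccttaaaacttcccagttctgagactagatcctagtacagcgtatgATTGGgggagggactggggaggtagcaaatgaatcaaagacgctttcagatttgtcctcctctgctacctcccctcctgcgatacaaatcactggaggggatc
Bcat2, chr7:45569903-45570202, plus strand: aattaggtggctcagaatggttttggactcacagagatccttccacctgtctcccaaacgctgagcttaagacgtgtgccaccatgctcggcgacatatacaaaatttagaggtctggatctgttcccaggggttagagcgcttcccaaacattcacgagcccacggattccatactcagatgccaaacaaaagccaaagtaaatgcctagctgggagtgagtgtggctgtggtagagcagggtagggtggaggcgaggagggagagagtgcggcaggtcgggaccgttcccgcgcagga
Mccc2, chr13:100015590-100015889, minus strand: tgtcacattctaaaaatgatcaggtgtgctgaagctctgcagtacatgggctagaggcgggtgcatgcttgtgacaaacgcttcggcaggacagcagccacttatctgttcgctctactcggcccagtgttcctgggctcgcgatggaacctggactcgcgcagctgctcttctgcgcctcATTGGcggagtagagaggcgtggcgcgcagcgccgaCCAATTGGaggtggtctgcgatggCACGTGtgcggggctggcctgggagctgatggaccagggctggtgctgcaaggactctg
The E-box was in 1 of the 12 windows and in 7.15% of all 32851 promoter windows. AGGTCA was in 2 of 12 (Bcat1 and Bckdhb) and in 16.3% of all windows, the CCAAT box in 8 of 12 and 37.4%, and the GC box in 2 of 12 (Mccc1 and Bckdhb) and 35.7%. Neither Bcat2 window, nor that of Bckdha, held any of the 4. These are matches of letters and say nothing of binding.

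In inguinal fat at day 24 all 10 members differed between knockout and wild type: 9 rose and Bcat1 fell. The rises ran from 0.38 (Bckdhb) to 1.07 (Dbt) on the log2 scale, and the values of the groups did not overlap for any of the 10. Among all 15710 genes tested, 28.6% passed, 15.3% higher and 13.3% lower, and the groups did not overlap for 36.8%, 18.3% with knockout higher and 18.5% with it lower. The median log2 change was 0.55 over the members and -0.02 over all genes tested. In bulk tissue a higher or lower level cannot be told apart from a changed share of the cells that make the transcript.

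**Figure D1:**
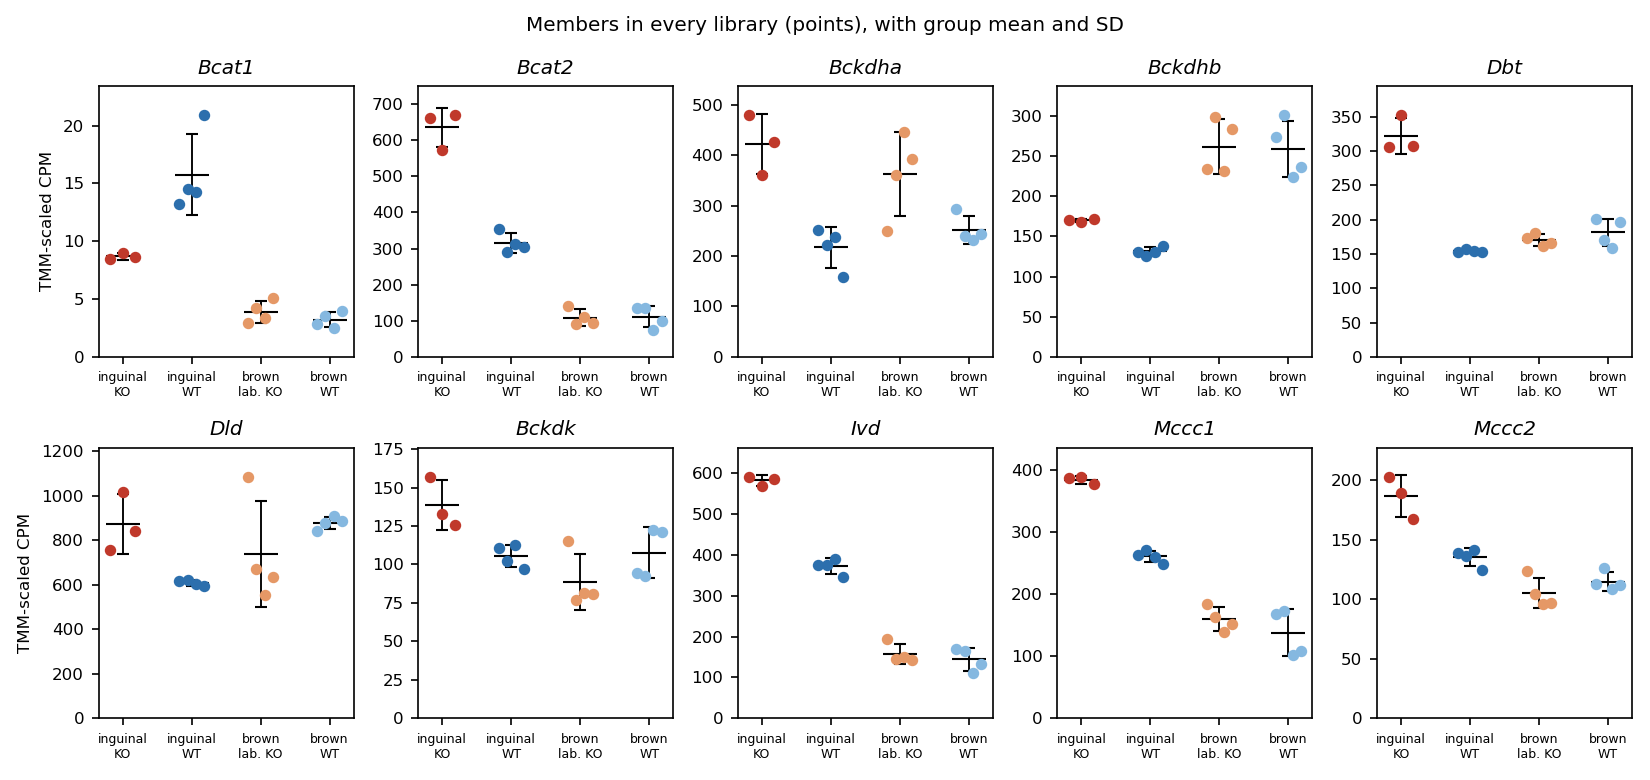
Levels of the 10 members in every library, in TMM-scaled CPM on linear axes from 0; points are libraries, bars the group mean ± SD (n = 3, 4, 4 and 4 from left to right; lab. KO, labelled knockout). In inguinal fat every knockout library lies above every wild-type library for 9 genes and below for Bcat1, while the brown groups overlap for all 10.

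Bcat2, the mitochondrial aminotransferase, stood at 663, 574 and 670.2 CPM in inguinal knockout libraries 2 to 4, against 355, 290.0, 312 and 305 CPM in wild-type libraries 1 to 4. Each knockout library exceeded each wild-type library, and the log2 change was 1.02 (SE 0.10, edgeR adjusted p = 1.16e-05). Bcat1, the cytosolic form best known from brain and proliferating cells, stood at 8.43, 9.01 and 8.62 CPM in knockout libraries, against 13.2, 14.5, 14.3 and 20.9 CPM in wild type. All knockout values were lower; wild-type library 4 was the highest. Bcat1 fell by 0.85 log2 units (SE 0.16, edgeR adjusted p = 0.00126). Per library, the log2 ratio of Bcat1 to Bcat2 CPM was -6.30, -5.99 and -6.28 in knockout and -4.74, -4.32, -4.45 and -3.86 in wild-type inguinal fat, so the shift in the ratio was larger than the spread of either group.

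The dehydrogenase complex has 3 catalytic parts: E1, made of BCKDHA and BCKDHB, E2, encoded by Dbt, and E3, encoded by Dld and shared with the pyruvate and oxoglutarate dehydrogenases. Dbt stood at 306, 353 and 308 CPM in inguinal knockout libraries, against 153, 158, 155 and 153 CPM in wild type. The wild-type libraries were nearly level and the change was the largest among the members at 1.07 log2 (SE 0.09, edgeR adjusted p = 1.99e-06). Bckdha stood at 480.1, 361 and 426 CPM in knockout and at 251, 223, 238 and 159 CPM in wild-type libraries. It rose by 0.97 (SE 0.15, edgeR adjusted p = 0.000431), with wild-type library 4 the lowest. Bckdhb, its partner in E1, stood at 171, 168 and 172 CPM in knockout and at 131, 126, 131 and 138 CPM in wild-type libraries. Its rise of 0.38 (SE 0.08, edgeR adjusted p = 0.00304) was the smallest of the 9. Dld stood at 755, 1018 and 844 CPM in knockout and at 616, 622, 603 and 594 CPM in wild-type libraries, with knockout library 3 the highest. Dld rose by 0.53 (SE 0.10, edgeR adjusted p = 0.00199).

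Bckdk, the kinase that inactivates the complex, rose together with the complex it restrains. It stood at 157, 133 and 126 CPM in inguinal knockout and at 111, 102, 112 and 97.3 CPM in wild-type libraries (log2 0.40, SE 0.10, edgeR adjusted p = 0.00771). Ppm1k, the opposing phosphatase, rose by 0.56 (SE 0.12, edgeR adjusted p = 0.00338), at 39.4, 58.4 and 51.0 CPM in knockout and 33.8, 36.3, 35.8 and 29.7 CPM in wild-type libraries. The log2 ratio of Bckdk to Ppm1k was 1.99, 1.19 and 1.30 in knockout and 1.50 to 1.72 in wild type, and these ranges overlapped. With all 4 groups in 1 fit, Bckdk and Dld no longer passed in inguinal tissue (edgeR adjusted p = 0.0844 and 0.0548).

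Of the leucine-branch enzymes, Ivd and Mccc1 were tight within the inguinal groups, while Mccc2 spread more widely in knockout. Ivd, which oxidises isovaleryl-CoA, stood at 592, 568 and 587 CPM in inguinal knockout and at 377, 376, 391 and 345 CPM in wild-type libraries. Its log2 change was 0.66 (SE 0.09, edgeR adjusted p = 0.000113). Mccc1, the biotin-carrying subunit of methylcrotonyl-CoA carboxylase, stood at 387, 389.9 and 378 CPM in knockout and at 263, 271, 261 and 249 CPM in wild-type libraries (0.57, SE 0.08, edgeR adjusted p = 0.000225). Mccc2, the other subunit, stood at 203, 189.8 and 168 CPM in knockout and at 139, 137, 142 and 125 CPM in wild-type libraries (0.48, SE 0.09, edgeR adjusted p = 0.0019). In each of the 3 the lowest knockout library exceeded the highest wild-type library.

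**Figure D2:**
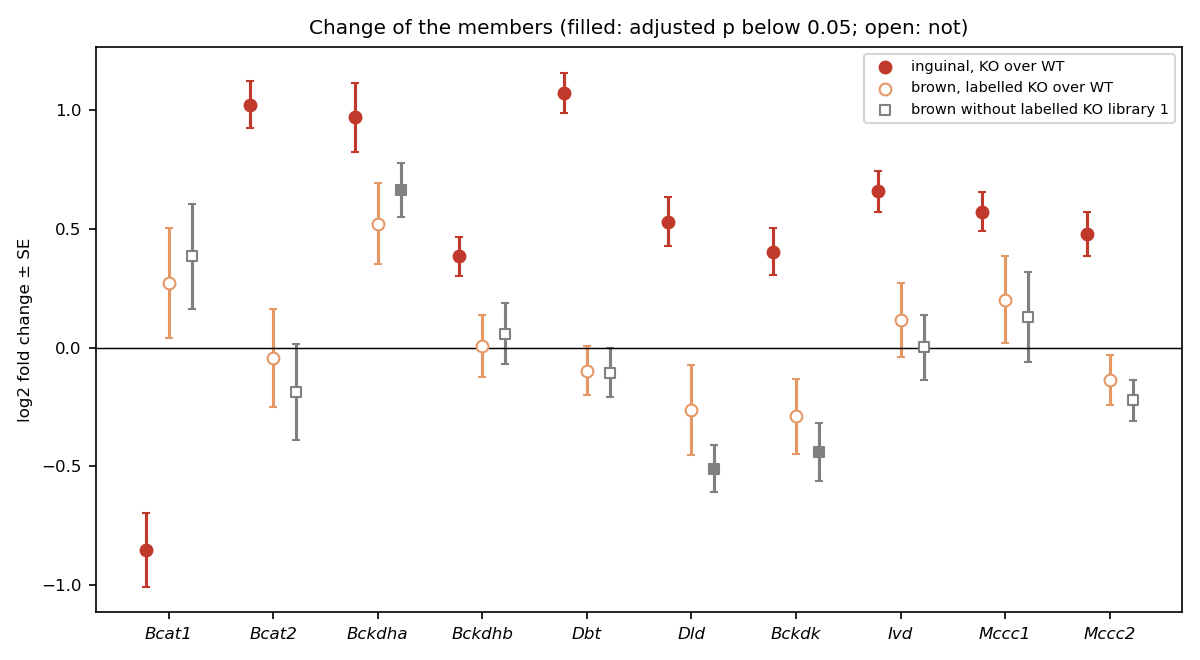
Log2 fold change ± SE of each member, knockout over wild type, in inguinal fat (red, n = 3 and 4), in brown fat (orange, n = 4 and 4) and in brown fat without labelled knockout library 1 (grey, n = 3 and 4). Filled symbols passed an edgeR adjusted p of 0.05: all 10 in inguinal fat and none in brown fat. Without that library, Bckdha, Bckdk and Dld passed in brown fat. The library was picked out by its values of these genes, so those calls are no independent result.

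Of 25 other genes of transport and breakdown, 19 rose in inguinal fat, 0 fell and 6 did not pass, where 15.3% of all genes rose. Their median log2 change was 0.54. All 5 valine-branch genes rose, from Hibadh at 0.41 (edgeR adjusted p = 0.00398) to Aldh6a1, the methylmalonate semialdehyde dehydrogenase, at 0.57 (edgeR adjusted p = 0.00196). All 3 isoleucine-branch genes rose, with Hsd17b10, a mitochondrial hydroxyacyl-CoA dehydrogenase, at 0.70 (edgeR adjusted p = 6.24e-05). The 4 genes from propionyl-CoA to succinyl-CoA rose by 0.62 to 0.83: Pcca and Pccb, the subunits of propionyl-CoA carboxylase, the epimerase Mcee and the mutase Mmut. Pcca stood at 403, 403 and 325 CPM in knockout and at 225, 220.1, 214 and 198 CPM in wild-type libraries (SE 0.10, edgeR adjusted p = 6.2e-05). Auh, a later enzyme of the leucine branch, rose by 0.32 (edgeR adjusted p = 0.0097).

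Transport changed in part. Slc25a44, which carries branched-chain amino acids into mitochondria, rose by 0.59 (SE 0.11, edgeR adjusted p = 0.0016), at 210.4, 179.8 and 156 CPM in inguinal knockout and 139, 118, 113 and 117 CPM in wild-type libraries. The plasma-membrane carriers Slc7a8 and Slc43a2 rose by 0.78 and 0.54 (edgeR adjusted p = 0.000198 and 0.00166). Slc7a5 and its partner Slc3a2 had log2 values of 0.15 and 0.27, and Slc43a1 of -0.18, none past the test (edgeR adjusted p = 0.548, 0.0885 and 0.148). Ketone-body genes Oxct1 and Bdh1 had log2 values of 0.09 and -0.28 (edgeR adjusted p = 0.478 and 0.686), and Abat 0.07 (edgeR adjusted p = 0.857). Bdh1 was near the floor, with means of 0.400 CPM in inguinal knockout and 0.507 CPM in wild type. Abat was low too, at 2.05 and 1.98 CPM. Klf15, a transcription factor that drives this pathway in muscle, heart and liver of mice, rose by 0.25 (SE 0.09, edgeR adjusted p = 0.0432), although the ranges overlapped (84.0 to 101 CPM in knockout, 76.3 to 84.4 CPM in wild type).

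**Figure D3:**
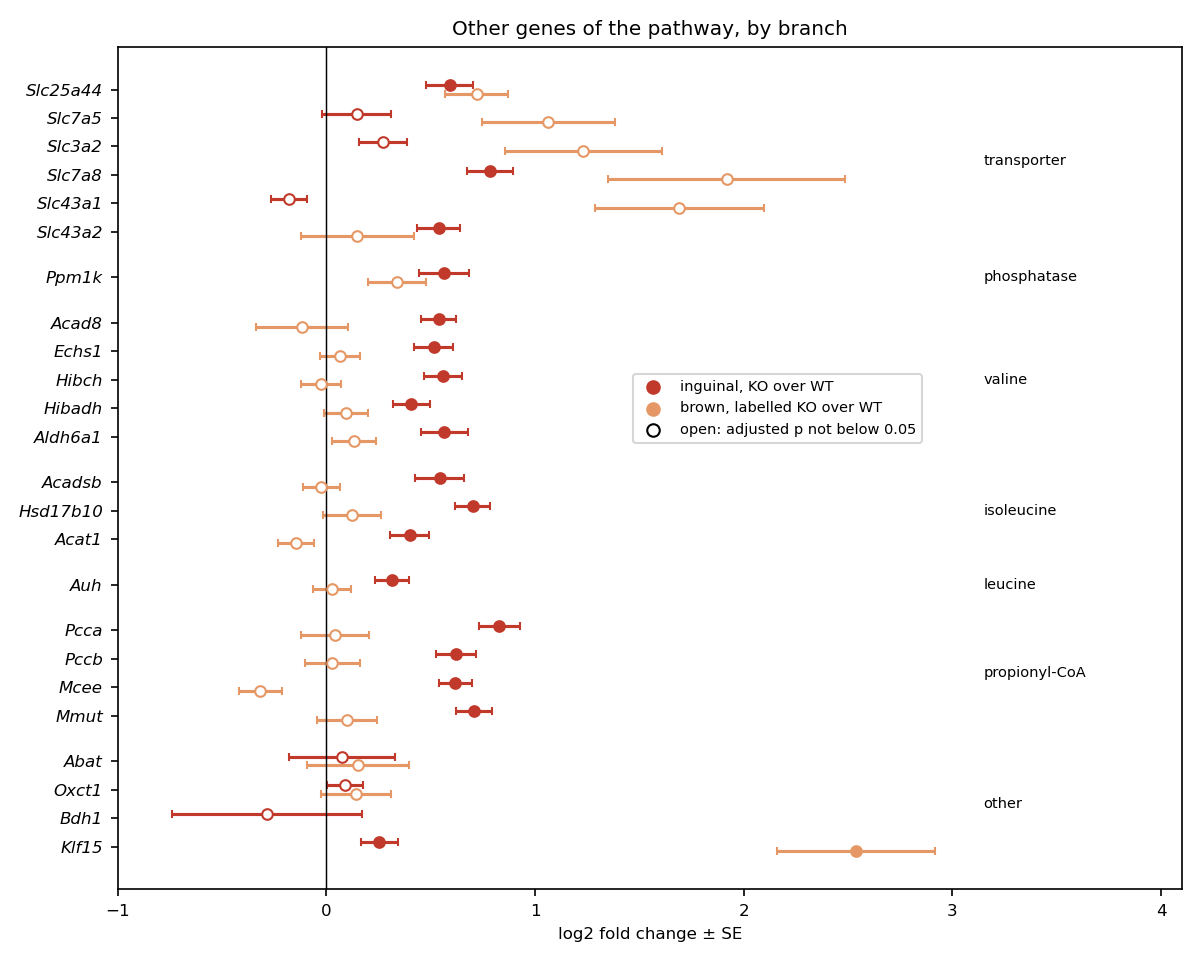
Log2 fold change ± SE of other pathway genes, grouped by branch, knockout over wild type in inguinal (red) and brown (orange) fat; filled points passed an edgeR adjusted p of 0.05. The red points drawn for the valine, isoleucine, leucine and propionyl-CoA branches are all filled and right of 0, while the largest brown values belong to Klf15 and to transporters.

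Markers of other cells moved in the same inguinal libraries. Of 16 skeletal muscle markers, 14 fell and 0 rose, and their summed level was 109 to 121 CPM in knockout, against 234 to 513 CPM in wild type. None of the muscle markers was at 0 in every library of a group, and Myh2, Myh3, Ryr1 and Tcap were below 1 CPM in knockout. Of 10 brown or beige adipocyte markers, 9 were tested, 6 rose and 0 fell, and the sum was 3110 to 3902 CPM in knockout and 1552 to 2335 CPM in wild type; Ucp1 was among the 6. Of 10 general adipocyte markers, 2 rose and 0 fell, and the sums overlapped (26319 to 30366 CPM in knockout, 26276 to 28352 CPM in wild type). Muscle also expresses BCAT2 and the dehydrogenase complex, and its share of these transcripts was not measured. The endothelial sum was 753 to 823 CPM in knockout and 858 to 1043 CPM in wild type (0 of 6 markers higher, 3 lower). The neuron and Schwann cell sum was 294 to 372 CPM in knockout and 466 to 542 CPM in wild type (6 of 7 markers tested, 2 higher and 2 lower; Th at 0 counts in knockout), and the progenitor sum was 710 to 934 CPM in knockout and 775 to 1085 CPM in wild type (1 of 7 higher, 2 lower). Epithelial markers were low, with a sum of 1.42 to 1.87 CPM in knockout and 3.77 to 13.1 CPM in wild type, where library 4 was the highest. Of 7 epithelial markers 2 were tested, 0 rose and 1 fell. The part of these cell types in the members' changes was not tested.

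In newborn brown fat no member passed. The 10 log2 changes, labelled knockout over wild type, lay between -0.29 (Bckdk) and 0.52 (Bckdha), 5 above and 5 below 0, with a median of -0.02, beside 0.01 over all genes tested. Among all 15796 genes 0.26% passed in edgeR, 0.184% higher and 0.076% lower. At an unadjusted p below 0.05 there was 1 member, Bckdha, against 18.5% of all genes. DESeq2 called 0 members and 1032 of the 15796 genes. With quality weights and no library left out, limma-voom called 3 members and 3127 of the 15796 genes. These members were Bckdha, which was higher, and Bckdk and Dld, which were lower. The groups overlapped for all 10 members and did not overlap for 9.74% of all genes, 4.88% higher and 4.86% lower. That a member did not pass does not show that its level was the same.

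Bckdha stood at 251, 362, 446 and 394 CPM in labelled knockout libraries 1 to 4, against 293, 239, 232 and 243 CPM in wild-type libraries 1 to 4. Labelled knockout library 1 lay within the wild-type range and the other 3 above it (log2 0.52, SE 0.17, edgeR adjusted p = 0.159). B3gnt8, on the opposite strand, shares 1171 bases of exon with Bckdha in the GENCODE M21 annotation, and had 17 to 117 counts per library, against at least 6241 for Bckdha. Dld stood at 1087, 671, 556 and 633 CPM in labelled knockout and at 841, 876, 908 and 888 CPM in wild-type libraries (log2 -0.26, SE 0.19, edgeR adjusted p = 0.483). Here library 1 was above all wild-type libraries and the other 3 below them. Bckdk stood at 116, 77.0, 81.8 and 80.6 CPM in labelled knockout and at 94.7, 92.3, 123 and 121 CPM in wild-type libraries (log2 -0.29, SE 0.16, edgeR adjusted p = 0.355), again with library 1 apart. Without labelled knockout library 1, Bckdha rose by 0.66 (SE 0.11, edgeR adjusted p = 0.00488), Dld fell by 0.51 (SE 0.10, edgeR adjusted p = 0.00763) and Bckdk fell by 0.44 (SE 0.12, edgeR adjusted p = 0.0326). That fit called 18.1% of 16071 genes and 3 of 10 members. Labelled knockout library 1 was picked out by its values of these same genes, and had the lowest Il33 of its group. These calls are therefore no independent result. Marker sums of library 1 also lay outside those of the other 3 labelled knockout libraries. Its adipocyte sum was 12461 CPM, against 14325 to 14724 CPM in the other 3, and its brown or beige sum 4419 CPM, against 5951 to 7972 CPM. Its muscle sum was 6044 CPM, against 3383 to 4606 CPM in the other 3, and its progenitor sum 1083 CPM, against 726 to 853 CPM. The part of these cell types in its values was not tested.

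The other 7 brown members passed neither with nor without labelled knockout library 1. Bcat2 stood at 139.7, 91.1, 111 and 92.5 CPM in labelled knockout and at 135, 136, 74.2 and 100.5 CPM in wild-type libraries (log2 -0.04, SE 0.21, edgeR adjusted p = 0.928). Bcat1 was low, at 2.94, 4.22, 3.35 and 5.07 CPM in labelled knockout and 2.87, 3.51, 2.52 and 3.94 CPM in wild-type libraries (log2 0.27, SE 0.23, edgeR adjusted p = 0.567). Its lowest count in a library was 107 in labelled knockout and 88 in wild type. Dbt, which changed most in inguinal fat, stood at 174, 181, 162 and 167 CPM in labelled knockout and at 201, 171, 159 and 196 CPM in wild-type libraries (log2 -0.10, SE 0.10, edgeR adjusted p = 0.651). Bckdhb ranged from 231 to 299 CPM in labelled knockout and from 224 to 301 CPM in wild type. Ivd ranged from 143 to 195 CPM in labelled knockout and from 112 to 171 CPM in wild type, and Mccc1 from 139 to 184 CPM in labelled knockout and from 102 to 173 CPM in wild type. Mccc2 ranged from 95.8 to 124 CPM in labelled knockout and from 108 to 127 CPM in wild type. Wild-type libraries 1 and 2 were above 3 and 4 for Bcat2, Bckdhb, Ivd and Mccc1.

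Among the 24 other pathway genes tested in brown fat, 1 rose and 0 fell. Klf15 stood at 35.3, 115, 87.3 and 140.3 CPM in labelled knockout and at 17.4, 20.3, 15.1 and 12.1 CPM in wild-type libraries, and its log2 value was 2.54 (SE 0.38, edgeR adjusted p = 0.0445). Its groups did not overlap, and library 1 was the lowest of the labelled knockout group. None of the 24 passed without any 1 brown library other than that one. Of the 6 carriers none passed. Slc43a2 had a log2 value of 0.15 (SE 0.27, edgeR adjusted p = 0.803), and the other 5 had larger values: Slc7a8 1.92 (SE 0.57, edgeR adjusted p = 0.144), Slc43a1 1.69 (SE 0.40, edgeR adjusted p = 0.102), Slc3a2 1.23 (SE 0.38, edgeR adjusted p = 0.151), Slc7a5 1.06 (SE 0.32, edgeR adjusted p = 0.143) and Slc25a44 0.72 (SE 0.15, edgeR adjusted p = 0.0775). Slc25a44 stood at 190.2, 319.8, 258 and 259.8 CPM in labelled knockout and at 159.9, 136, 166 and 159 CPM in wild-type libraries, which did not overlap. Among the 24 genes, the groups did not overlap for 3 with labelled knockout higher (Klf15, Slc25a44 and Slc7a5). They did not overlap for 2 with it lower (Acat1 and Mcee). Over all genes tested these shares were 4.88% and 4.86%. Without labelled knockout library 1, Slc25a44 (0.84), Slc7a8 (2.27), Slc43a1 (1.98), Slc3a2 and Klf15 (2.81) rose and Acad8 (-0.44) and Mcee (-0.37) fell (edgeR adjusted p from 0.000273 to 0.0307). That fit called 18.1% of 16071 genes. The library was picked out by its values, so these calls are descriptive only. Muscle marker sums overlapped between the brown groups (3383 to 6044 CPM in labelled knockout, 3617 to 6155 CPM in wild type), with 0 of 16 markers past the test.

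The change with the knockout label differed between the depots for 6 of the 10 members, 5 with the larger value in inguinal fat. Of all 16858 genes 9% did, 4.8% higher and 4.2% lower. Tissue and age differ together, so the depot cannot be told apart from the age, and the same libraries enter the single-depot comparisons. The difference (inguinal log2 change minus brown log2 change) was 1.15 for Dbt (SE 0.13, edgeR adjusted p = 0.000135), and this call held under all 22 alternatives. For Bcat2 it was 1.05 (SE 0.25, edgeR adjusted p = 0.0186), a call lost without inguinal knockout library 2 (0.0529). Bcat1 had -1.14 (SE 0.29, edgeR adjusted p = 0.0226), lost without inguinal knockout library 2 or 3 or wild-type library 4 (0.0581, 0.059 and 0.0502). Mccc2 had 0.59 (SE 0.14, edgeR adjusted p = 0.0183), lost without inguinal knockout library 2 or 3 (0.0563 and 0.0562). Dld had 0.77 (SE 0.23, edgeR adjusted p = 0.0496), lost without any 1 library other than brown labelled knockout library 1 (0.0601 to 0.152). Bckdk had 0.67 (SE 0.20, edgeR adjusted p = 0.0447), lost without any 1 library other than brown labelled knockout library 1, brown wild-type library 1 or 2, or inguinal knockout library 4 (0.0628 to 0.127). Bckdha, Bckdhb, Ivd and Mccc1 had 0.43, 0.36, 0.52 and 0.35 and did not pass (edgeR adjusted p = 0.283, 0.165, 0.0943 and 0.326). Without brown labelled knockout library 1, Ivd passed too (0.65, edgeR adjusted p = 0.0105).

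Between the wild-type tissues, brown over inguinal, 8 members differed, 3 higher and 5 lower, where 61.4% of 15979 genes did (30.7% higher and 30.7% lower). These wild-type libraries are also the ones used above. Newborn brown fat held less of the aminotransferases and of the leucine-branch members than inguinal fat at day 24. Of 2 other leucine-branch genes, 1 was higher and 0 lower in brown fat. Bcat1 averaged 3.21 ± 0.636 CPM in brown and 15.7 ± 3.50 CPM in inguinal fat (SD, n = 4 each). Its log2 value was -2.29 (SE 0.19, edgeR adjusted p = 8.9e-07). Bcat2 averaged 112 ± 30.0 CPM in brown and 315 ± 27.9 CPM in inguinal fat (-1.50, SE 0.18, edgeR adjusted p = 8.14e-05). Ivd was lower in brown fat by -1.36 log2 (SE 0.12, edgeR adjusted p = 2.76e-06), Mccc1 by -0.92 (SE 0.17, edgeR adjusted p = 0.00103) and Mccc2 by -0.24 (SE 0.07, edgeR adjusted p = 0.0132). The values of the groups overlapped for Mccc2, and its call held in 15 of 16 alternatives. The complex went the other way in part: Bckdhb averaged 259 ± 35.2 CPM in brown and 131 ± 5.27 CPM in inguinal fat (0.98, SE 0.09, edgeR adjusted p = 3.5e-06), and Dld was higher by 0.53 (SE 0.07, edgeR adjusted p = 4.01e-05). Dbt was higher by 0.23 (SE 0.08, edgeR adjusted p = 0.0241), a call lost without brown wild-type library 1 or 4 or any 1 inguinal library (0.0518 to 0.0719). Bckdha (0.21) and Bckdk (0.03) did not pass (edgeR adjusted p = 0.185 and 0.825). In the same libraries muscle markers summed to 3617 to 6155 CPM in brown and 234 to 513 CPM in inguinal fat (14 of 16 higher, 2 lower). General adipocyte markers summed to 13503 to 15310 CPM in brown and 26276 to 28352 CPM in inguinal fat (0 of 10 higher, 8 lower), and of 7 progenitor markers 1 was higher and 5 lower in brown fat. Brown or beige adipocyte markers were higher in brown fat for 7 of 10 and lower for 0, and endothelial markers for 5 of 6 and 0. The part of these cell types in the differences was not tested.

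Levels were set against each other per kilobase of merged GENCODE M21 exons, which include alternative exons and so understate genes with many of them. On this scale of CPM per kilobase, Bcat1 had the lowest mean of the 10 members in each of the 4 groups, and Dld the highest, in labelled knockout brown fat through library 1 alone. In inguinal knockout fat the mean level was 237 ± 36.3 for Dld, 223 ± 31.3 for Bckdha, 163 ± 13.6 for Bcat2 and 0.932 ± 0.0315 for Bcat1 (SD, n = 3), and Dld and Bckdha did not differ beyond their spread. In inguinal wild type it was 165 ± 3.38 for Dld, 115 ± 21.6 for Bckdha, 80.9 ± 7.15 for Bcat2, 72.8 ± 2.92 for Bckdhb, 67.6 ± 3.52 for Ivd and 1.69 ± 0.375 for Bcat1 (SD, n = 4). In labelled knockout brown fat Dld stood at 295, 182, 151 and 172 in libraries 1 to 4 and Bckdha at 132, 191, 235 and 207, so that Bckdha was the higher in 3 of 4 libraries. There the mean was 191 ± 43.5 for Bckdha, 145 ± 19.2 for Bckdhb and 0.418 ± 0.101 for Bcat1 (SD, n = 4). In brown wild type Dld (239 ± 7.66) was followed by Bckdhb (144 ± 19.5) and Bckdha (133 ± 14.7), which lay within each other's spread, and Bcat2 (28.6 ± 7.69), Bckdk (29.2 ± 4.46) and Ivd (26.3 ± 5.09) were level (SD, n = 4). In each group Bcat2 exceeded Bcat1 many times over.

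**Figure D4:**
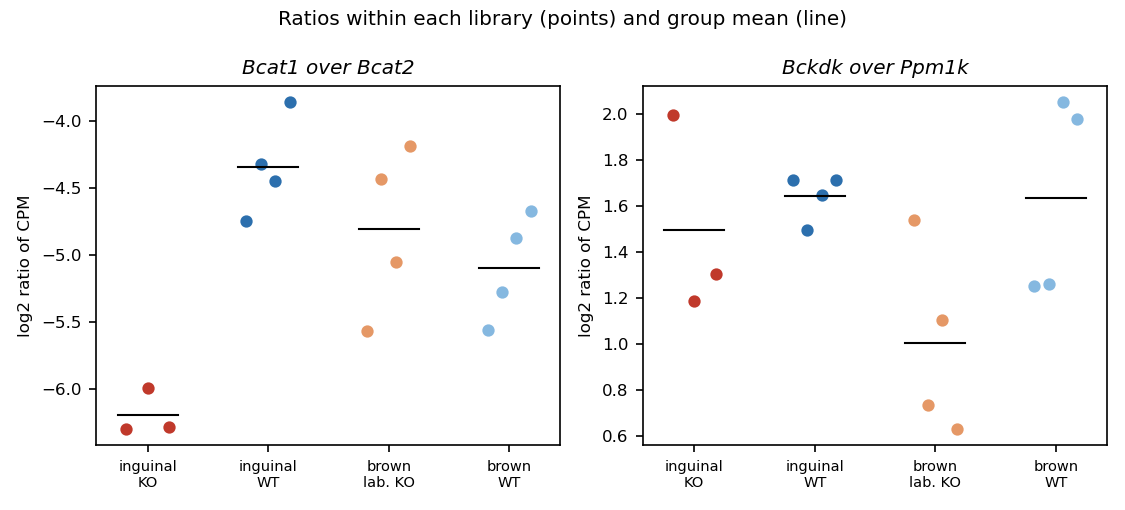
Log2 ratio of CPM of Bcat1 to Bcat2 (left) and of Bckdk to Ppm1k (right) in each library (points) with the group mean (line); n = 3, 4, 4 and 4 from left to right. Inguinal knockout libraries have the lowest Bcat1 to Bcat2 ratios, -6.30 to -5.99, while the kinase to phosphatase ratio overlaps between groups in both depots.

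Within brown fat the log2 ratio of Bcat1 to Bcat2 ran from -5.57 to -4.19 in labelled knockout and from -5.56 to -4.67 in wild-type libraries. The log2 ratio of Bckdk to Ppm1k ran from 0.63 to 1.54 in labelled knockout and from 1.25 to 2.05 in wild-type libraries, with labelled knockout library 1 the highest of its group. Genes with the most similar profile were found by the root mean square difference of centred log2(CPM + 1) values over the 15 libraries, among 10745 genes of at least 5 CPM on average. For Bcat2 they were Rhbdl3 (0.19 log2 units), Pgd (0.22), a dehydrogenase of the pentose phosphate pathway, and Echdc1 (0.23), a proofreading enzyme that removes ethylmalonyl-CoA. Pgd averaged 847 ± 118 CPM in inguinal knockout and 472 ± 38.3 CPM in inguinal wild type, with 192 ± 39.2 CPM in labelled knockout brown and 180.2 ± 35.4 CPM in wild-type brown fat. For Bcat1 they were Ly6a (0.20), a surface antigen of stromal progenitors, Medag (0.21) and Slc2a13 (0.21), a myo-inositol transporter. Ly6a averaged 107 ± 13.6 CPM in inguinal knockout and 152 ± 20.6 CPM in inguinal wild type, with 46.2 ± 11.7 CPM in labelled knockout brown and 35.9 ± 5.80 CPM in wild-type brown fat (SD, n = 3, 4, 4 and 4).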

How the data were processed

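Polyadenylated RNA of 15 adipose libraries in 4 groups was sequenced from stranded mRNA libraries, per the labels' protocols. The deposited table holds raw counts per Ensembl gene, not normalized by the authors; mm9, edgeR, Subread, featureCounts and TopHat2 2.1.0 are named in the submitters' processing notes. The sources used here give neither strand setting nor annotation. Reads shared with antisense genes are therefore uncertain. Of the identifiers, 32919 matched a symbol. No other transcript matched a member over 200 bases at 95% identity except genes overlapping it. No library duplicated another: within groups, chi-square over its degrees of freedom was at least 13.7.

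Each comparison was fitted over all genes in R 4.3.3 with edgeR 4.0.16 (filterByExpr at a minimum count of 10, TMM, robust quasi-likelihood F-test, Benjamini-Hochberg adjusted p below 0.05), after tests on simulated data. All 10 members passed the filter in every comparison. The SE was taken as |log2 change|/√F. Fits used their own TMM factors and levels those of all libraries. Alternatives used DESeq2 1.42.0 and limma 3.58.1. Members, the pathway list of 25 genes and the marker lists were chosen with earlier results of these data known. All members were described. Values of pathway genes are given for a part of the list, for called genes and for others alike. Similar genes were the 3 nearest to Bcat2 and to Bcat1. The labels do not say whether replicate numbers pair the libraries. Correlations of same-numbered deviations ran from -0.14 to 0.21, which cannot decide it with so few libraries per group. Of the pathway list, 1 gene is counted but not reported here. Among the members Bcat1 had the fewest counts.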

Additional observations from a re-analysis of the deposited data

Results flagged for a closer look

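Among 30 sets of 4 libraries (10 members in 3 groups), 3 held a library far from the others; chance gives about 1 in 20. Bcat1 in inguinal wild type had library 4 highest, its gap to the next being 0.834 of the range. Bckdk and Ivd in labelled knockout brown fat had library 1 highest, with gaps of 0.876 and 0.868 of the range.

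The change with the knockout label differed between the depots (inguinal minus brown, log2, edgeR test of the difference) for 6 members: Dbt 1.15, Bcat2 1.05, Dld 0.77, Bckdk 0.67, Mccc2 0.59 and Bcat1 -1.14. It also differed for 10 of the 25 other pathway genes. Of all 16858 genes 9% differed, 4.8% higher and 4.2% lower. Mcee had 0.91, Pcca 0.77, Pccb 0.57, Hibch 0.56, Hsd17b10 0.56, Acadsb 0.55, Acat1 0.52 and Echs1 0.43. Klf15 had -2.30 and Slc43a1 -1.89, the larger log2 change of each being that in brown fat.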

How the results depend on the processing

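In inguinal fat 10 members passed under each alternative but 1, all 4 groups in 1 fit (8), and 14 to 19 other pathway genes passed; all kept their direction. Between wild-type tissues 7 or 8 members and 13 to 20 pathway genes passed. Brown members passing were 0, except 3 with limma-voom, and 0 to 3 with 1 library left out. Brown pathway genes passing (1) were 0 with no filter on low counts, 7 when the 4 groups shared a fit, 9 with limma-voom, 6 by DESeq2's Wald test and 0 to 7 with 1 library left out. For the difference between depots, 6 members became 1 to 7 and 10 pathway genes became 3 to 14 with 1 library left out; pathway genes were 5 with no filter and 16 with limma-voom. The cause of these shifts was not tested. With the replicate number as a block, 0 members and 0 pathway genes passed in brown fat, 10 and 17 in inguinal fat, 8 and 18 between wild-type tissues, and 3 and 5 for the difference (Dbt, Bcat2 and Bcat1 among members); the numbers pair nothing in the labels, and libraries did not all correlate best with their own number.

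Over all genes, 41 brown calls became 67 with no filter, 1151 when the 4 groups shared a fit, 3127 with limma-voom, 1032 by the Wald test, 7 with the block and 2 to 2905 with 1 library left out. The 4498 inguinal calls became 2249 with all 4 groups in 1 fit. The 1517 calls of the difference became 2351 with the Wald test, 3696 with limma-voom, 864 with the block and 632 to 3571 with 1 library left out. Leaving out 1 library moved brown Bcat2 between -0.19 and 0.063, brown Bckdhb between -0.054 and 0.085, and Bckdk of the wild-type tissues between -0.039 and 0.095, so their signs are undetermined. Bcat1 had the fewest counts in brown fat, 88 in its lowest library. Its SE there (0.23) was close to that of Bcat2 (0.21), which had at least 2589 counts.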

Other observations

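Several pathway genes outside the members divided the wild-type brown libraries as Bcat2, Ivd and Mccc1 did. Oxct1, which uses ketone bodies, stood at 159 and 183 CPM in wild-type libraries 1 and 2 and at 108 and 113 CPM in libraries 3 and 4. Pcca stood at 187 and 198 CPM in libraries 1 and 2 and at 127 and 141 CPM in 3 and 4. Ucp1, the uncoupling protein of brown fat, had the opposite order, at 2480.0 and 3246 CPM in libraries 1 and 2 and 6380.1 and 6777 CPM in 3 and 4. Marker sums divided the same libraries. Muscle markers summed to 6155 and 5032 CPM in libraries 1 and 2 and to 3617 and 4084 CPM in 3 and 4, and neuron and Schwann cell markers to 56.8 and 58.4 CPM in 1 and 2 and to 44.8 and 46.8 CPM in 3 and 4. Their part in the division was not tested. Acad8, the isobutyryl-CoA dehydrogenase of the valine branch, stood at 131, 66.0, 66.5 and 63.9 CPM in labelled knockout brown libraries 1 to 4, against 82.8 to 93.9 CPM in wild type, so that library 1 lay above and the other 3 below the wild-type range.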
